A study of Homo sapiens with 8 samples.

Results

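The genes that carry dietary lipid through the absorptive cell were followed here through the small open reading frames (smORFs) that lie in them, with Ribo-Seq of Caco-2 cells. Ribo-Seq sequences the RNA fragments that ribosomes shield from a nuclease, so a read in a smORF marks a ribosome, or another complex that protects RNA, at that place. A smORF belonged to the group when one of its annotated host genes was APOB, MTTP, APOA1, APOA4, APOC3, FABP1, FABP2, DGAT1, DGAT2 or NPC1L1. The rule found 12 of the 24199 smORFs of the series, in 7 of the 10 genes, and no smORF was listed for MTTP, FABP2 or NPC1L1. The table counts reads in smORFs and not in the known coding sequences, so the values below describe the smORFs and not the making of the known proteins.

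Caco-2 is an established line from a human colon adenocarcinoma that takes on features of absorptive enterocytes once it is left to differentiate. The 8 libraries form 4 groups of 2 replicates each: undifferentiated cells, differentiated cells with no further treatment (the control), differentiated cells given micelles made of taurocholate and carrying no lipid, and differentiated cells given lipid micelles that held BSA, oleic acid and cholesterol. Taurocholate is a bile salt, and BSA is bovine serum albumin. The labels give neither the dose of the micelles nor the length of differentiation, and do not state whether the replicates are separate cultures, so that the p-values measure the spread between these libraries, which may be technical. For its mass spectrometry the paper describes similar Caco-2 cultures. There the differentiated cells were kept for longer and then held overnight without serum. Whether these libraries were made so is not stated, so time in culture and serum may differ along with differentiation. The line is a tumor cell line and stands for the small intestinal enterocyte only as a model.

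In the enterocyte, fatty acids and monoacylglycerols taken up from bile salt micelles are joined again to triacylglycerol at the endoplasmic reticulum, loaded onto apolipoprotein B and sent out in chylomicrons. NPC1L1 takes up cholesterol, FABP1 and FABP2 carry fatty acids in the cytosol, DGAT1 and DGAT2 make the last step of triacylglycerol synthesis, and MTTP lipidates APOB as the particle forms. APOA1, APOA4 and APOC3 are smaller apolipoproteins that ride on the particles. A smORF in the 5′ untranslated region, called a uORF, can engage ribosomes before they reach the coding sequence, and a dORF lies in the 3′ untranslated region.

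Of the 12 smORFs, 9 were classed by the authors as uORFs, 2 as dORFs (in APOA4 and APOC3) and 1, in APOB, as intragenic. Over all smORFs of the series these classes made up 69.9, 6.60 and 0.587%. The sequences of 9 of the 12 are given in full where they are short, and otherwise as the first 30 bases, to show how these frames begin, with the first codon in capitals and the strand of the gene read 5′ to 3′ from hg38.
FABP1 uORF IEC_14386: GGCagagccgcaggtcagtcg
DGAT2 uORF IEC_00306: ATGggccaggggcgcggggtgaagcggctt
APOB uORF IEC_13210: TCCcaccgggacctgcggggc
APOB intragenic smORF IEC_23925: ATGtggctgacgtatttctccccacgt
APOA1 uORF IEC_17174: GAGactgcgagaaggaggtgcgtcctgctg
APOA4 uORF IEC_16317: TTCccactgcagcgcagg
APOA4 dORF IEC_16316: ATGaacttgaggacacatgtccagtgggag
APOC3 uORF IEC_06021: CTGcagggctggcgggacagcagcgtggac
APOC3 dORF IEC_00285: ATGcctggcccccctccaggcatgctggcc

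Of the 12 smORFs, 5 began with ATG, beside 43.4% of all smORFs. They were both dORFs, the intragenic smORF of APOB and the shorter uORF of each DGAT gene. The uORFs of FABP1, APOB and APOA4, which carried the main changes described below, began with GGC, TCC and TTC. All 12 were listed as 1 unspliced block and were followed by a stop codon in the genome. They were short, from 6 to 57 amino acids with a median of 13.5, beside a median of 31 over the series. Their RibORF scores, which rate the coverage and the codon periodicity of the reads, ran from 0.716 to 1.045 with a median of 0.799, against 0.876 for all smORFs. Each is the highest score listed for the smORF and belongs to no library. The paper called smORFs in several cell types, so a score does not show a call in these Caco-2 libraries. PhyloCSF, a score of protein-coding conservation, was negative for all 12 (-9.04 to -5.17), while 1.75% of the smORFs of the series had a positive value. The uORFs of FABP1, APOA1, APOA4 and APOB started at or next to the annotated first base of the MANE Select transcript, the reference transcript of the gene, at 0, 1, 2 and 2 nucleotides from it.

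The FABP1 uORF (chr2:88128042-88128062, minus strand) ended 24 nucleotides before the coding sequence. DGAT1, on chromosome 8, held 2 uORFs that overlap each other and share reads: IEC_15459 of 171 nucleotides ended 7 nucleotides before the coding sequence, and IEC_15460 of 90 nucleotides lay farther upstream. The 2 uORFs of DGAT2, IEC_00305 and IEC_00306 (chr11:75768930-75768971, plus strand), overlap as well and ended 43 and 20 nucleotides before the coding sequence. The APOB uORF (chr2:21044051-21044071, minus strand) ended 105 nucleotides upstream of it, whereas IEC_23925 (chr2:21042480-21042506) lay within the gene but in no annotated APOB exon. The APOA4 uORF (chr11:116823285-116823302, minus strand) ended 93 nucleotides before the coding sequence and the dORF (chr11:116820726-116820779) began 90 nucleotides after it. The APOC3 dORF (chr11:116833011-116833046, plus strand) began 129 nucleotides after its coding sequence, and the APOC3 uORF (chr11:116829708-116829746) fell in an exon of other annotated APOC3 transcripts but not of the MANE Select one. The APOA1 uORF (chr11:116837523-116837621, minus strand) had 17 of its 99 nucleotides in the 5′ untranslated region of the MANE Select transcript, and all 99 in that of other APOA1 transcripts. It lies opposite the antisense gene APOA1-AS, and the APOA4 dORF lies opposite the lncRNA gene ENSG00000285513; since the strand option of the counting is not stated, reads of these pairs cannot be told apart.

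**Figure D1:**
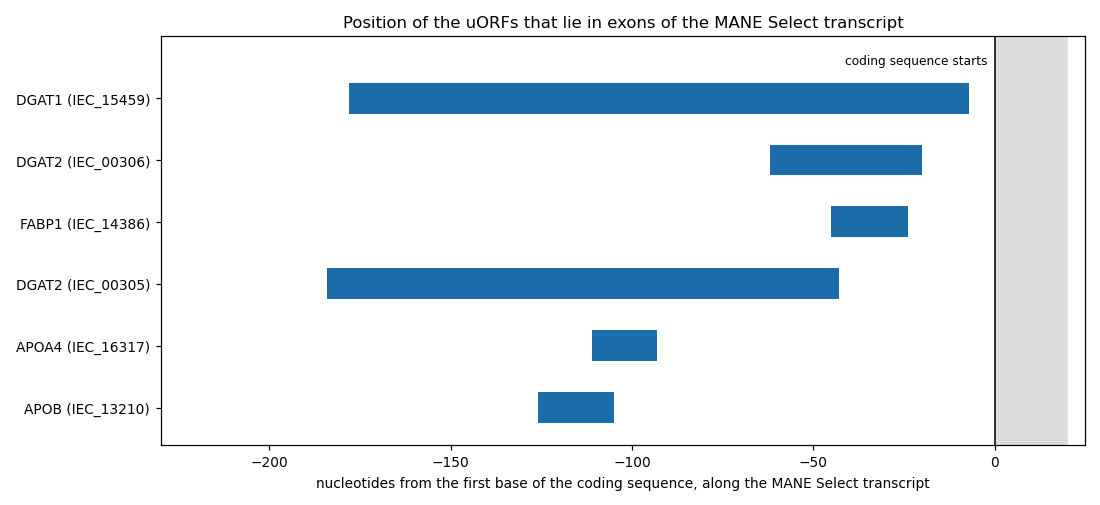
Position of the 6 uORFs that lie wholly in exons of the MANE Select transcript, drawn to scale as nucleotides before the first base of the coding sequence (x axis), 1 bar per smORF. The nearest one, in DGAT1, ended 7 nucleotides before the coding sequence and the farthest, in APOB, 105; the pair in DGAT2 overlaps.

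Library totals over all smORFs ran from 506382 to 884711 counts, and 15182 smORFs, including all 12, passed the filter on low counts. Differentiation was visible in marker genes: all 23 smORFs of 6 cycling genes (MKI67, TOP2A and MCM5 among them) fell in differentiated control cells. Of the 15 genes on the enterocyte list, 5 had a smORF and 2 had one tested. From these, 6 of 8 smORFs tested rose, all of them in 1 gene, CDX2, an intestinal transcription factor, and the other gene tested was not called. The defining enterocyte genes ALPI, SI, LCT and VIL1 had no smORF in the table, so the absorptive label could be checked only in part. Of the goblet list, 3 of 4 smORFs tested fell (in REG4 and AGR2), while the fibroblast and immune lists summed to at most 18.9 and 11.7 CPM (counts per library size, scaled to a common total) in any library. Of the hepatocyte list, 12 of 14 smORFs tested rose, in SERPINA1 and AHSG, genes that Caco-2 cells also express, and its summed level ran from 9031 to 11372 CPM in undifferentiated cells, 23768 to 28510 in the control, 31875 to 33859 with micelles without lipid and 38083 to 40566 with lipid micelles. ALB, TTR, TF, FGA, FGB and CYP3A4 had no smORF there, and the part of this list in the results below was not tested.

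The first question was how the lipid genes changed as the cells differentiated. The 12 smORFs took 0.17 and 0.23% of all counts in the undifferentiated libraries and 0.371 to 0.622% in the 6 differentiated ones. Between differentiated control and undifferentiated cells, 8 of the 12 were called changed by edgeR's quasi-likelihood test, 7 higher and 1 lower (adjusted p under 0.05, with the log2 fold change 1 or more in size). Of all 15182 smORFs tested, 33.3% were called, 17.7% higher and 15.6% lower. At an adjusted p under 0.05 and any size of change, 10 of the 12 passed, beside 36.3% of all. The control libraries lay wholly above the undifferentiated ones for 10 of the 12, where 35.2% of all smORFs did so, and wholly below for 1, where 34.2% did. The median log2 fold change was 1.77 for the 12 smORFs and 0.01 over all smORFs tested. The members called higher were in FABP1, APOB, APOA4 and APOC3, the one called lower in APOA1, and neither DGAT gene had a smORF that was called. The smORFs of APOA4 and APOC3 and the intragenic one of APOB held few undifferentiated counts and passed the low-count filter through differentiated libraries. With 10 counts required in every library, 7 members were tested and 3 called, beside 1562 of all 6629 smORFs tested. These were the uORFs of FABP1 and APOB, higher, and that of APOA1, lower. The log2 fold changes of these 3 were 1.96, 1.85 and -1.34 under that filter. Those of the DGAT1 uORFs were 0.58 and 0.95, and those of the DGAT2 uORFs 0.95 and -0.25. In bulk Ribo-Seq counts, the number of cells of a kind, the RNA per cell and the ribosomes per RNA cannot be told apart.

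**Figure D2:**
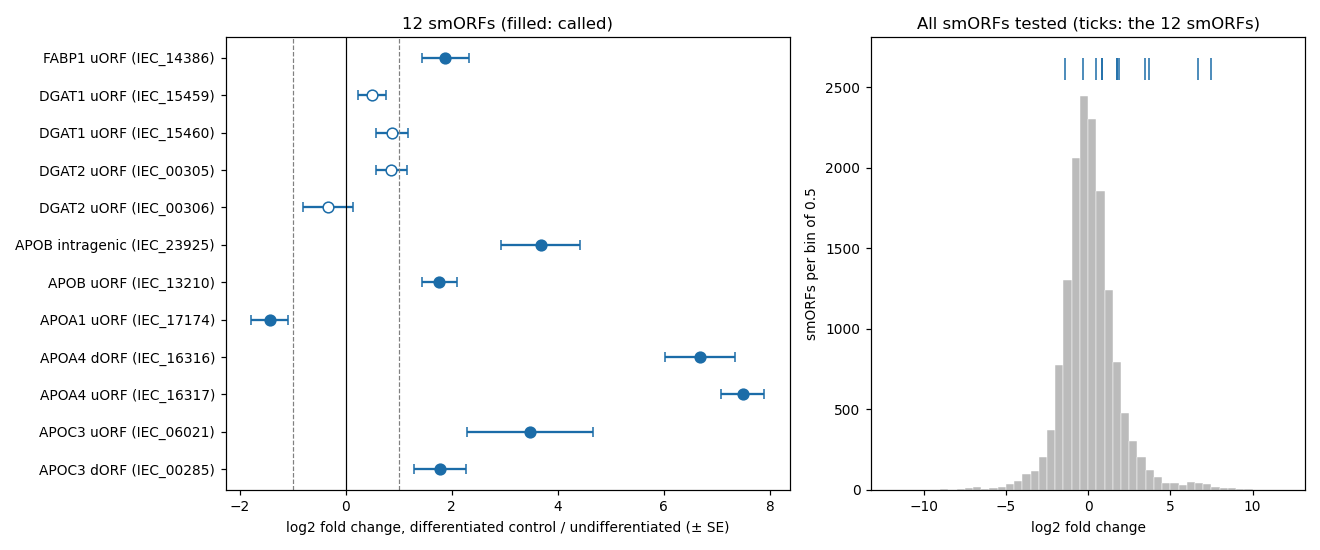
Log2 fold change of differentiated control over undifferentiated cells for the 12 smORFs (left, points with SE, filled where called, dashed lines at a log2 fold change of 1 in either direction) and for all 15182 smORFs tested (right, smORFs per bin, with the 12 as ticks). The 2 smORFs of APOA4 lie at 6.68 and 7.49, far from the bulk of smORFs, and the APOA1 uORF is the member called lower, at -1.43.

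FABP1, the liver-type fatty acid binding protein, had the uORF with the highest mean level per nucleotide over the 8 libraries, although APOA4 overlapped it in each differentiated group. Its level was 432 and 389 CPM in the undifferentiated libraries, 1904 and 1129 in the control, 3028 and 1045 with micelles without lipid, and 2949 and 1154 with lipid micelles. All 6 differentiated libraries lay above both undifferentiated ones. Against undifferentiated cells the control was 3.69-fold higher (log2 fold change 1.88 ± 0.44 SE, adjusted p = 0.00336), and the call held when any library was left out. The replicates disagreed in each differentiated group, replicate 1 being 1.69, 2.90 and 2.56 times replicate 2, while the undifferentiated replicates differed by a factor of 1.11.

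The DGAT genes, which esterify diacylglycerol to triacylglycerol, had 2 uORFs that rose at an adjusted p under 0.05 but by less than the size set for a call, and 2 that did not pass. The longer DGAT1 uORF had 181 and 288 CPM in undifferentiated cells, 354 and 307 in the control, 393 and 433 with micelles without lipid and 456 and 410 with lipid micelles. The differentiated libraries lay above the undifferentiated ones, but the difference of the control did not pass the test (log2 fold change 0.50 ± 0.26, adjusted p = 0.147). The shorter DGAT1 uORF was 1.83-fold higher in the control (log2 fold change 0.87 ± 0.31, adjusted p = 0.0327). The longer DGAT2 uORF had 94.3 and 99.5 CPM in undifferentiated cells, 197 and 157 in the control, 129 and 203 with micelles without lipid and 242 and 172 with lipid micelles. The groups did not overlap here either, and the control was 1.82-fold higher (log2 fold change 0.87 ± 0.30, adjusted p = 0.0297). The median size of change over all smORFs was 0.84 on this scale. The shorter DGAT2 uORF overlapped between the groups, with counts of 11 and 27 in undifferentiated and 10 and 23 in control libraries. With the lipid micelle group in place of the control, an alternative added after seeing the data, the shorter DGAT1 and the longer DGAT2 uORF were called, at 1.09 each. So was the shorter DGAT1 uORF without replicate 2 of the undifferentiated cells (1.23, adjusted p = 0.0284, range over the alternatives 0.00875 to 0.223), and the longer DGAT2 uORF without replicate 2 of the control (1.03, adjusted p = 0.0472, range 0.00747 to 0.14).

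APOB is the scaffold of the chylomicron and of the liver's lipoproteins. Its uORF had 25.1 and 33.8 CPM in undifferentiated cells, 111 and 89.7 in the control, 107 and 91.2 with micelles without lipid and 153 and 207 with lipid micelles. Every differentiated library lay above the undifferentiated ones, and both lipid micelle libraries lay above the other 6. The control was 3.40-fold higher than undifferentiated cells (log2 fold change 1.76 ± 0.33, adjusted p = 0.000593). The intragenic smORF IEC_23925 had 1 count in each undifferentiated library and 8 and 23 in the control, then 13 and 12, and 14 and 17. It was called higher in the control (adjusted p = 0.00109), and the ratio of scaled counts was 14.5 with a 95% interval of 3.69 to 125, which covers counting error only. Its log2 fold change was 3.68, and 3.09 without replicate 2 of the control.

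APOA1, the main apolipoprotein of high-density lipoprotein, had the one uORF that was called lower. Its level was 981 and 1434 CPM in undifferentiated cells, 303 and 589 in the control, 533 and 901 with micelles without lipid and 701 and 1198 with lipid micelles. The control libraries lay below the undifferentiated ones, but the lipid micelle libraries overlapped them. The log2 fold change of the control was -1.43 ± 0.35 (adjusted p = 0.00425). The call was lost without replicate 2 of the undifferentiated cells (adjusted p = 0.0617) and without replicate 1 of the control (0.0712), and over all alternatives the adjusted p ran from 1.89e-06 to 0.447. With the micelle groups in place of the control the log2 fold change was -0.75 (adjusted p = 0.0938) without lipid and -0.34 (0.447) with lipid, so that the fall was called only for the untreated differentiated cells.

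APOA4, an apolipoprotein of the intestine that is made as chylomicrons form, had the largest difference of the 12. The uORF had 4 and 3 counts in the undifferentiated libraries, 509 and 898 in the control, 493 and 1033 with micelles without lipid and 1127 and 1602 with lipid micelles. In CPM these were 6.29 and 5.33, then 995 and 1168, 894 and 1428, and 1674 and 1865. The uORF thus held few reads in undifferentiated cells and 493 or more in each of the 6 differentiated libraries. The control was 180-fold higher (log2 fold change 7.49 ± 0.41, adjusted p = 3.61e-09). The dORF went the same way from 1 and 0 counts to 42 and 96 in the control (adjusted p = 1.03e-06), a ratio of scaled counts of 129 with a counting interval of 22.8 to 5141. Counts were 53 and 103 with micelles without lipid and 52 and 91 with lipid micelles. The calls of both APOA4 smORFs held when any library was left out, but the log2 fold change of the dORF, 6.68, was 5.92 without replicate 2 of the undifferentiated cells and 9.13 without replicate 1, where the library that remained held 0 counts and the fitted value depends on the prior count.

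APOC3 slows the clearance of triacylglycerol-rich particles. Among the smORFs with the highest mean CPM of each gene, that of APOC3, its dORF, had the lowest mean level per nucleotide in each group. The dORF had 4 and 9 counts in undifferentiated cells, 18 and 31 in the control, 15 and 31 with micelles without lipid and 17 and 25 with lipid micelles. The differentiated libraries lay above the undifferentiated ones, and the control was 3.44-fold higher (log2 fold change 1.78 ± 0.48, adjusted p = 0.00865). The uORF had 0 and 1 counts in undifferentiated cells, 1 and 14 in the control, 9 and 15 without lipid and 9 and 10 with lipid. It was called as well (adjusted p = 0.0303), with a ratio of scaled counts of 14.05 and a counting interval of 2.16 to 591, although replicate 1 of the control held 1 count. The dORF call was lost without replicate 1 of the undifferentiated cells (adjusted p = 0.102) or replicate 2 of the control (0.0600), its adjusted p running from 0.00240 to 0.102. Its log2 fold change was 2.58 without replicate 2 of the undifferentiated cells and ran from 1.27 to 2.58 over the libraries left out. The uORF call was lost without either undifferentiated library (0.181 and 0.0564), without replicate 2 of the control (0.712) and with DESeq2's Wald test (0.100), over a range of 0.00629 to 0.712. Its log2 fold change of 3.47 became 1.06 without replicate 2 of the control, 4.20 without replicate 1 of the control, 2.56 without replicate 1 of the undifferentiated cells and 5.95 without replicate 2, where the remaining library held 0 counts.

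**Figure D3:**
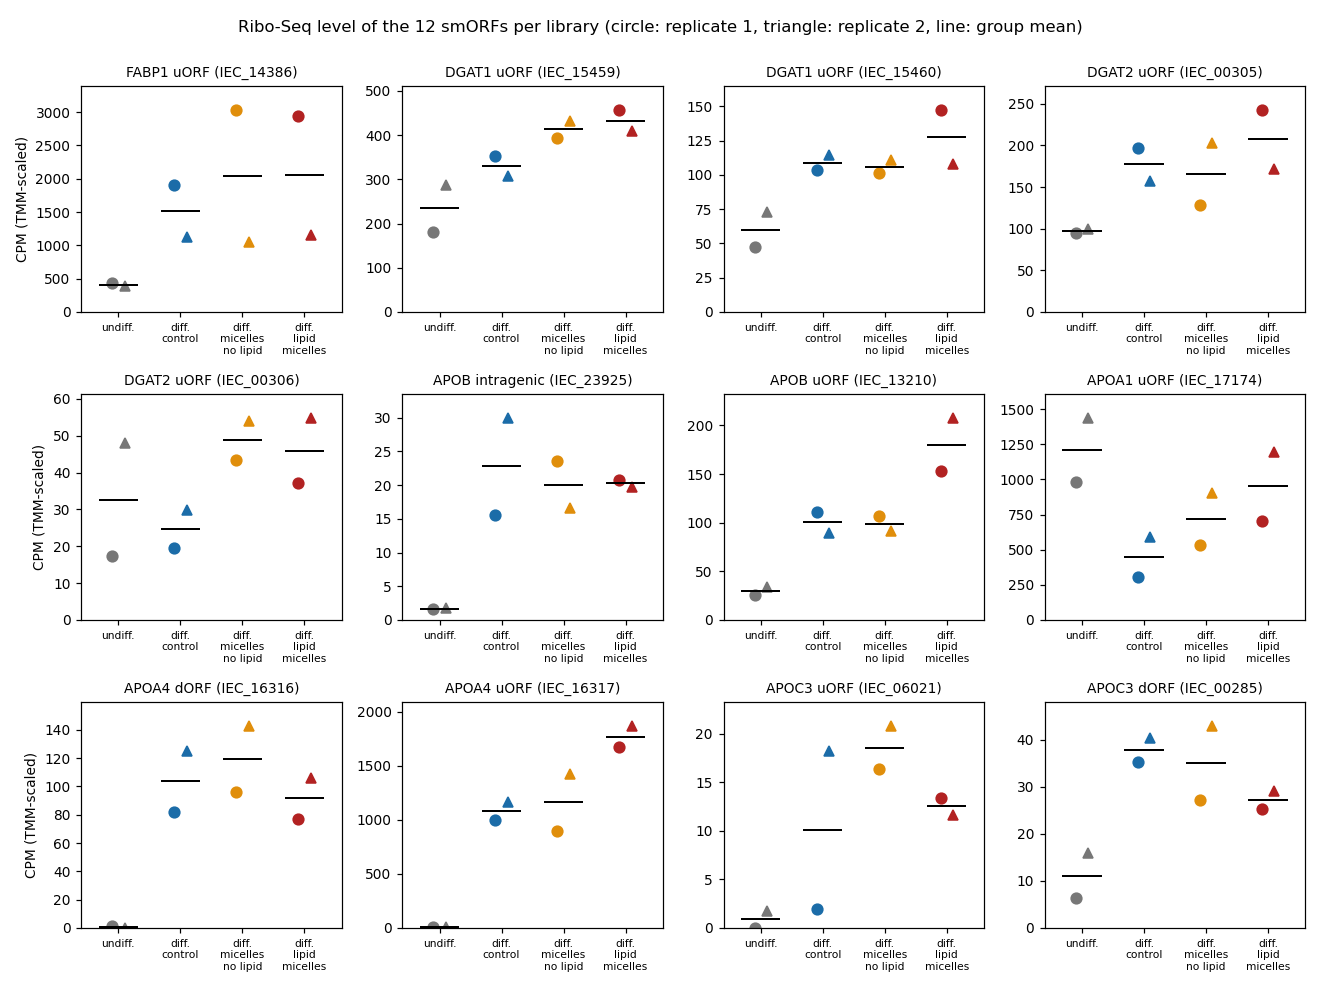
TMM-scaled CPM (y axis, linear from 0, own scale per panel) of each of the 12 smORFs in the 8 libraries, by group, with circles for replicate 1, triangles for replicate 2 and a line at the group mean. The APOA4 uORF rises from 6.29 and 5.33 CPM to between 894 and 1865 in the differentiated libraries, and FABP1 shows replicate 1 above replicate 2 in each differentiated group.

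Levels were compared between genes per nucleotide of the leading smORF, the one with the highest mean CPM of the gene. This was the dORF for APOC3 and a uORF for every other gene, so APOC3 was compared at an unlike place. In undifferentiated cells FABP1 led with 19.6 ± 1.45 CPM per nucleotide (SD, n = 2), followed by APOA1 with 12.2 ± 3.24, and their ranges did not overlap. This order depends on the division by length, since mean CPM there was 1207 for the APOA1 uORF and 411 for that of FABP1. The APOA1 uORF was divided by all 99 of its nucleotides, of which 17 lie in the MANE Select transcript. APOB (1.40 ± 0.29) and DGAT1 (1.37 ± 0.44) overlapped each other, DGAT2 lay at 0.687 ± 0.026, and APOA4 (0.323 ± 0.038) and APOC3 (0.309 ± 0.191) came last and overlapped. In the differentiated control FABP1 (72.2 ± 26.1) and APOA4 (60.1 ± 6.79) overlapped at the top, and the next pair, APOB (4.79 ± 0.73) and APOA1 (4.51 ± 2.04), overlapped as well. DGAT1 had 1.93 ± 0.19, and DGAT2 (1.26 ± 0.20) and APOC3 (1.05 ± 0.10) could not be ordered. The APOA4 uORF thus moved from the level of the APOC3 dORF to that of the FABP1 uORF. The APOC3 uORF lay lower than the dORF in undifferentiated cells, at 0.023 CPM per nucleotide. With micelles without lipid FABP1 (97.0 ± 66.8) and APOA4 (64.5 ± 21.0) again overlapped. With lipid micelles APOA4 had 98.3 ± 7.49 and FABP1 97.7 ± 60.5 CPM per nucleotide, and these overlapped. Fragments protected by a ribosome are longer than the shortest of these frames, so a level per nucleotide of so short a smORF also counts reads that reach beyond it.

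**Figure D4:**
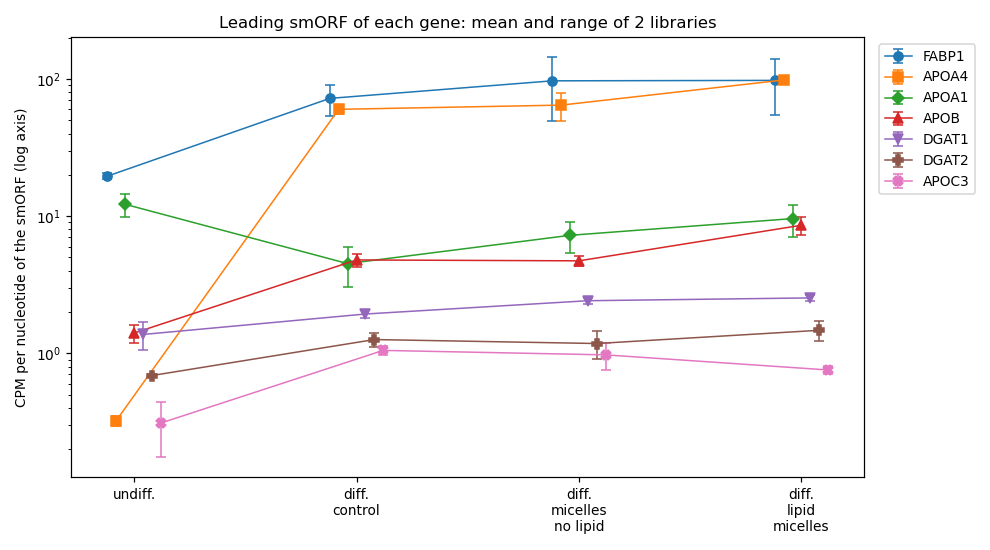
CPM per nucleotide (log axis) of the leading smORF of each of the 7 genes in the 4 groups, as the mean of 2 libraries with bars from the lower to the higher library. The leading smORF is the dORF for APOC3 and a uORF for every other gene. APOA4 climbs from 0.323 in undifferentiated cells to 60.1 in the control, next to FABP1, while APOA1 falls from 12.2 to 4.51.

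The second question was whether micelles, with or without lipid, changed the smORFs of differentiated cells. None of the 12, and none of the 15182 smORFs tested, was called by edgeR in any of the 3 comparisons (0% each). DESeq2's Wald test called 2, 0 and 0 of all smORFs and no member, for micelles without lipid against control, lipid micelles against control, and lipid micelles against micelles without lipid. With the replicate number as a block within the differentiated libraries, 15, 1 and 5 smORFs were called, again none of the 12. At an unadjusted p under 0.05 there were 1, 3 and 2 of the 12, beside 4.08, 4.66 and 4.11% of all smORFs. The groups did not overlap for 2 higher and 0 lower members in the comparison of micelles without lipid with the control, where 16.2% and 15.9% of all smORFs did so, or 32.1% in either direction. With lipid micelles against the control, 5 lay wholly higher and 1 wholly lower (18.3% and 17.6% of all, 35.9% in either direction), and with lipid micelles against micelles without lipid, 2 and 1 (15.8% and 16.9%). The medians of the 12 were 0.15, 0.31 and 0.05 on the log2 scale, next to 0.01, 0.00 and -0.01 over all smORFs. The comparisons with the control share its 2 libraries. Values of the micelle comparisons below come from the fit without the block, unless the block is named.

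With lipid micelles against the control, the smallest unadjusted p-values were those of the uORFs of APOA1, APOB and APOA4. Against micelles without lipid they were those of the APOB and APOA4 uORFs. The APOC3 uORF did not follow, with a log2 fold change of 0.15 ± 0.70 against the control. Against micelles without lipid it was at -0.58 ± 0.65, both lipid micelle libraries lying lower. With micelles without lipid against the control, the 1 member at an unadjusted p under 0.05 was the shorter DGAT2 uORF. The APOB uORF, given above by library, was 1.81-fold as high with lipid micelles as in the control (log2 fold change 0.85 ± 0.28, adjusted p = 0.957 by edgeR's quasi-likelihood test) and 1.83-fold as high as with micelles without lipid (0.87 ± 0.28, adjusted p = 0.999). With micelles without lipid it was at the level of the control (-0.02 ± 0.29). The APOA4 uORF followed in the same order, at 0.71 ± 0.26 for lipid micelles against control (adjusted p = 0.957), 0.61 ± 0.26 against micelles without lipid (0.999) and 0.10 ± 0.26 for micelles without lipid against control. In both genes the 2 lipid micelle libraries lay above all 6 others, and neither difference passed the test. The share of all smORFs that lay above all 6 was not counted. In the single comparisons, 18.3% lay above the control and 15.8% above micelles without lipid. The other smORF of each gene did not follow. The intragenic smORF of APOB was at -0.22 ± 0.45 with lipid micelles against control and 0.03 ± 0.46 against micelles without lipid, and the APOA4 dORF at -0.19 ± 0.32 and -0.38 ± 0.31, with overlapping libraries. The APOA1 uORF was at 1.08 ± 0.35 with lipid micelles against control (adjusted p = 0.957) and at 0.68 ± 0.34 with micelles without lipid. Between the micelle groups it was at 0.40 ± 0.34, with overlapping libraries. With the block its value for lipid micelles against control was 1.11 ± 0.19 with an adjusted p of 0.120, the lowest of the 12.

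None of the differences of FABP1 and the DGAT genes passed the test either. FABP1 was at 0.43 ± 0.42 without lipid and 0.44 ± 0.42 with lipid against the control, with overlapping libraries. With the block within the differentiated libraries these were 0.27 ± 0.20 and 0.31 ± 0.20. The longer DGAT1 uORF was at 0.33 ± 0.26 and 0.39 ± 0.26, its micelle libraries lying above those of the control. The longer DGAT2 uORF, at -0.08 ± 0.28 and 0.23 ± 0.28, overlapped in both comparisons, while the shorter one was at 0.95 ± 0.44, the largest of the 12 with micelles without lipid, and 0.87 ± 0.43, on counts of 10 to 47. The APOC3 dORF was at -0.47 ± 0.40 with lipid micelles against control, the one member wholly lower there, on 17 and 25 against 18 and 31 counts.

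**Figure D5:**
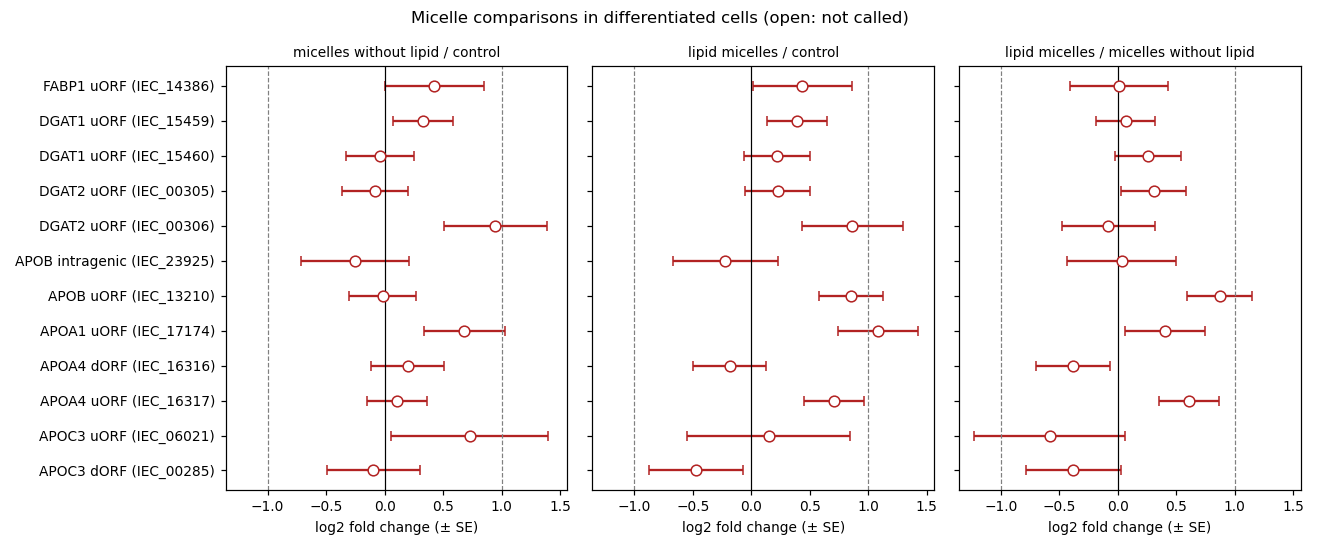
Log2 fold change with SE (x axis) of the 12 smORFs in the 3 micelle comparisons of differentiated cells, 1 panel per comparison, all open because none was called, with dashed lines at 1 in either direction. With lipid micelles the uORFs of APOB (0.85), APOA4 (0.71) and APOA1 (1.08) lie to the right of 0 against the control. The same 3 uORFs also do so against micelles without lipid (0.87, 0.61 and 0.40). The APOC3 uORF lies at 0.15 against the control and at -0.58 against micelles without lipid.

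The members were set beside 74 other genes of lipid uptake, esterification, trafficking and lipoprotein biology. Of these, 33 held a smORF and 23 had one that passed the filter, with 132 smORFs in all. In differentiated control against undifferentiated cells 28 of these smORFs were called higher and 5 lower, in 11 and 3 genes, with 1 gene in both. These were 21.2% and 3.79% of the 132, beside 17.7% and 15.6% of all smORFs. Their median log2 fold change was 0.34, above the 0.01 of all smORFs. It was below that of the 12 members, which counts smORFs of APOA4, APOC3 and APOB that passed the low-count filter through differentiated libraries. The largest rises were in GPAT3 and AGPAT2, acyltransferases of glycerolipid synthesis, with counts of 3 and 0 rising to 12 and 28 and of 1 and 2 rising to 10 and 9. A smORF of ABCA1, the exporter that loads cholesterol onto APOA1, rose 5.05-fold (37 and 33 counts against 146 and 235), while another smORF of the same gene fell (84 and 69 against 19 and 17). PLA2G12B rose 4.51-fold. GPAM, which starts glycerolipid synthesis, fell from 16 and 15 to 2 and 7 counts, and SAR1A, a GTPase of the COPII coat, from 134 and 137 to 55 and 71. As with the members, none of these smORFs was called in a micelle comparison.

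The pattern most like that of the FABP1 uORF over the 8 libraries was sought among 4831 other host genes, by the root mean square difference of centred log2 CPM of the leading smORF. The nearest were AKAP1-DT (0.299), RTN4 (0.326) and LRRC3 (0.333). Their levels were far lower, with at most 12 counts in any library for AKAP1-DT, 67 for RTN4 and 27 for LRRC3, and no more than the likeness is stated here.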

How the data were processed

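The authors aligned Ribo-Seq reads to hg38 with STAR (2.7.11a in the submitters' processing notes), scored open reading frames of an assembled transcriptome with RibORF, kept short ones outside known coding regions, and counted reads per smORF with HOMER. The paper reports its 24199 smORFs from Ribo-Seq of several cell types besides Caco-2. A smORF in the table need not have been called in Caco-2 cells. The deposited values are raw counts, and the deposited annotation holds the RibORF and PhyloCSF scores, the location class and the length of each smORF. Strand, exon and multi-mapping options of the counting are not given in the sources used here.

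Host genes were matched to the 10 names, and distances were taken from GENCODE release 44 on hg38. The members and gene lists were chosen with earlier results of these data known. Counts were tested with edgeR 4.0.16 (R 4.3.3): filterByExpr on the groups, TMM scaling, and a quasi-likelihood fit with 1 term per group over all 8 libraries. p-values are two-sided, with Benjamini-Hochberg adjustment across 15182 smORFs. The SE comes from the F statistic. CPM are counts relative to the TMM-scaled total of the smORFs tested, and intervals (95%, exact) cover counting error only, since PCR duplicates are not resolved. The text names every member gene, its leading smORF and every smORF called, at most 4 genes per direction of the other lipid genes, at most 3 per marker list, and the 3 genes most like FABP1. Counts of IEC_23925, of the APOC3 uORF and of the APOA4 dORF in undifferentiated cells were 3 or fewer.

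Replicates correlated at 0.883 to 0.920 over log2 CPM, and differed beyond counting noise (chi-square per degree of freedom 2.51 to 3.25). Deviations of equally numbered libraries correlated at 0.198, 0.119 and 0.109 between the differentiated groups, which were taken as paired by number, but not with undifferentiated cells (-0.07 to 0.02). The main fit has no term for this pairing, which enters only through the replicate block among the alternatives. Alternatives were DESeq2 1.42.0 (its size factors and its Wald test), 2 other low-count filters, 1 smORF per overlap cluster, a replicate block, only the groups compared, and leaving out each library. The sequences of 3 smORFs are not reported here. The fits were tested on simulated data. Plots were drawn with matplotlib 3.10.9 in Python 3.11.15.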

Additional observations from a re-analysis of the deposited data

How the results depend on the processing

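Of the log2 fold changes of the 12 smORFs under the alternatives, 705 kept their direction and their side of the threshold, 4 passed it only under the alternative, 10 fell short of it only there and 33 changed sign. These totals pool the 4 comparisons. In the 3 micelle comparisons no member was called under any setting, so keeping its side there means only that it stayed uncalled. None of those that changed sign was called. For differentiated control against undifferentiated cells, the call count of 5060 became 3301 with DESeq2's Wald test, 1562 with 10 counts in every library (6629 smORFs tested, of which 7 members, with 3 called) and 2309 with 1 smORF per overlap cluster (6657 tested), and ran from 3490 to 5258 when single libraries were left out, with 6 to 8 members called. The shorter DGAT2 uORF changed sign with micelles without lipid (0.61) or lipid micelles (0.53) in place of the control, and ran from -0.89 to 0.57 over left-out libraries.

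For micelles without lipid against control, 2 smORFs were called with the Wald test, 36 without a low-count filter (22770 tested) and 0 to 22 when a library was left out, the 22 without replicate 1 of micelles without lipid. Without the filter 4 were called between lipid micelles and control and 23 between the 2 kinds of micelles. With the replicate block over all libraries the counts were 5133, 15, 0 and 3 for the 4 comparisons, and 15, 1 and 5 for the 3 micelle comparisons in the differentiated libraries alone. The block changed no call of a member. The cause of these moves was not tested.

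With libraries left out, these members changed sign. For micelles without lipid against control the log2 fold change ran from -0.53 to 1.00 (FABP1), -0.11 to 0.036 (DGAT1, shorter uORF), -0.45 to 0.20 (DGAT2, longer uORF), -0.60 to 0.34 and -0.17 to 0.13 (APOB, intragenic and uORF), -0.13 to 0.55 and -0.28 to 0.40 (APOA4, dORF and uORF) and -0.48 to 0.17 (APOC3 dORF). For lipid micelles against control it ran from -0.39 to 0.96 (FABP1), -0.014 to 0.43 (DGAT1, shorter), -0.036 to 0.45 (DGAT2, longer), -0.57 to 0.37 (APOB, intragenic), -0.45 to 0.17 (APOA4 dORF) and -0.55 to 2.56 (APOC3 uORF). For lipid micelles against micelles without lipid it ran from -0.82 to 0.97 (FABP1), -0.012 to 0.14 (DGAT1, longer), -0.40 to 0.16 (DGAT2, shorter), -0.22 to 0.29 (APOB, intragenic), -0.035 to 0.83 (APOA1) and -0.65 to 0.0062 (APOC3 dORF).

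Levels moved by more than 1 SD when the unscaled total was used for DGAT2 in undifferentiated cells (92.6 CPM), and when a gene's overlap clusters were summed for APOB in the control (123) and with micelles without lipid (119), APOA4 in undifferentiated cells (6.59) and APOC3 in the control (47.8), micelles without lipid (53.6) and lipid micelles (39.7). With 2 libraries per group and few reads in several of these smORFs, small differences were not detectable.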

Other observations

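The dORF and the uORF of APOA4 were set against each other after their values were seen. The dORF held 8.25 and 10.7% as many counts as the uORF in the control libraries, 10.8 and 9.97% with micelles without lipid, and 4.61 and 5.68% with lipid micelles. Both lipid micelle libraries lay below the other 4 differentiated libraries. This difference was not tested, and the lncRNA gene opposite the dORF may add reads to it.

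The APOA1 uORF had the opposite replicate order to that of FABP1. Replicate 2 was 1.94, 1.69 and 1.71 times replicate 1 in the control, in micelles without lipid and in lipid micelles, and 1.46 times in undifferentiated cells, where FABP1 had replicate 1 higher in each group.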
